A study of Mus musculus with 5 samples.

Results

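The Bcl2 family sets the threshold at which a cell dies through its mitochondria, and 10 of its genes were followed here in mouse haematopoietic stem cells. They were chosen by gene name, not by any measured value, and all 10 were found among the 33894 named genes of the deposited tables. They comprise the pro-survival genes Bcl2, Mcl1 and Bcl2l1 (which encodes Bcl-xL), the effectors Bax and Bak1, and the BH3-only genes Bcl2l11 (Bim), Bid, Bad, Pmaip1 (Noxa) and Bmf. The sort took marrow cells with Sca1 and high c-Kit but without lineage markers, CD34 or Flt3, and RNA from 6K cells per sample was sequenced in bulk. Of the 5 libraries, 3 were labelled Lrp5/6 dKO, carrying Vav-cre and floxed alleles of both genes (Lrp5 fl/fl and Lrp6 fl/fl), and 2 were labelled WT, all from mice aged 8 weeks. Vav-cre is a Cre transgene active across blood cells, so the labelled loss is not restricted to stem cells, and because the labels name Cre only in the dKO group, an effect of Cre itself and an effect of the floxed alleles cannot be told apart. Lrp5 and Lrp6 are the co-receptors through which Wnt ligands stabilise beta-catenin.

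In a living cell the pro-survival proteins sit at the outer mitochondrial membrane and hold the effectors Bax and Bak1 in check. BH3-only proteins sense stress, bind the pro-survival proteins or the effectors, and so allow Bax and Bak1 to form pores that release cytochrome c and start the caspases. Stem cells of the blood are known to depend on Mcl1 for survival. Much of the control in this family acts on the protein, by turnover, phosphorylation or cleavage, and is not seen in RNA. The counts also do not separate splice forms of a gene, although forms of Bcl2l1, Mcl1 and Bcl2l11 with opposing or unequal potency are known.

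The genotype labels were not reflected in the RNA of the targeted genes. Lrp6 had 790, 260 and 767 counts in the dKO-labelled libraries and 660 and 232 in WT, and Lrp5 had 37, 2 and 71 counts against 7 and 32. A count over a whole gene does not show the loss of a floxed exon, so these values neither check nor overturn the labels, and the groups below are groups by label. Library totals ranged from 16028512 to 28027458 counts, the lowest being dKO-labelled replicate 2, which also correlated least with the others. All 12 stem cell markers were detected in every library. Their summed level was 2400, 2625 and 2354 CPM (counts relative to library size, scaled by the TMM method) in the dKO-labelled libraries, against 1843 and 1215 CPM in WT. The 8 granulocyte progenitor markers summed to 12289, 15761 and 11107 CPM in the dKO-labelled libraries, against 6471 CPM in WT replicate 1 and 42271 CPM in WT replicate 2. The erythroid, megakaryocyte and dendritic cell markers also summed higher in every dKO-labelled library than in WT (162 to 182 against 95.7 to 101 CPM for the erythroid list). In the erythroid list Car1 measured 69.9, 58.2 and 62.7 CPM in the dKO-labelled libraries, against 6.57 and 6.45 CPM in WT. Hba-a1, at 37.7, 53.1 and 74.8 CPM against 64.0 and 63.8 CPM, overlapped, as did Hbb-b1 and Epor. The dendritic sum was almost wholly Flt3, Cd74, H2-Aa, H2-Ab1 and H2-Eb1, with Siglech at 7.6 CPM or less. The B lineage and mast cell lists overlapped. The T and NK cell sum was almost wholly Nkg7, at 562, 677 and 671 CPM in the dKO-labelled libraries against 704 and 1881 CPM in WT. In bulk RNA, fewer cells of a type and less RNA per cell cannot be told apart.

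No member passed the test that was run across all genes. With edgeR's quasi-likelihood test and Benjamini-Hochberg adjustment over 13696 genes, 0 of the 9 tested members were called higher and 0 lower at an adjusted p of 0.05, where 0% of all genes were called in either direction. Bmf was too low to be tested. At an unadjusted p of 0.05, Mcl1 and Bcl2 were higher in the dKO-labelled libraries and 0 members were lower, against 4.94% of all tested genes higher and 5.19% lower. By CPM, Mcl1 and Bcl2 were also the tested members whose dKO-labelled libraries all lay above both WT libraries, which was true of 13.7% of genes. Bad was the tested member whose dKO-labelled libraries all lay below by CPM, as in 15.6% of genes. DESeq2, which called 1.12% of genes higher and 0.664% lower, called 0 members in either direction. Of the 9 tested members 4 had a fitted value above 0 and 5 below, where 52.2% of all tested genes were above and 47.8% below, with a median log2 fold change of -0.08 against 0.04 over all tested genes. Whether the libraries stem from separate mice is not stated, so these p-values speak only of the spread among the 5 samples, which may be technical.

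The promoters of Mcl1 and Bcl2 are shown because these genes had the smallest unadjusted p-values among the members. Each window is RefSeq sequence on GRCm38.p6, from 250 bases before the annotated start to 50 bases after it, and capitals mark GC boxes, the letters GGGCGG on either strand.
Mcl1, chr3:95658471-95658770, plus strand: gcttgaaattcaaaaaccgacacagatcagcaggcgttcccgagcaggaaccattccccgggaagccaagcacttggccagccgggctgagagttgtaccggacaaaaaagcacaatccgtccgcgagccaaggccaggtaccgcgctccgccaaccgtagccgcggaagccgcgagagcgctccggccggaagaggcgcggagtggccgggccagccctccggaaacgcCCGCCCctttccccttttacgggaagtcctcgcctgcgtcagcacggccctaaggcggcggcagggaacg
Bcl2, chr1:106714241-106714540, minus strand: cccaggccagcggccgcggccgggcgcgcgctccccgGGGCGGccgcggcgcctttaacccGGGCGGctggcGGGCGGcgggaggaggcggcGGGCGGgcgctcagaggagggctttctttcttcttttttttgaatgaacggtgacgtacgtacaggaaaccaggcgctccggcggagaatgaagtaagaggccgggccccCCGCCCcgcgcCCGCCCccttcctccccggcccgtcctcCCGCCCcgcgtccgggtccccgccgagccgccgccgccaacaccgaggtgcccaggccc
The Mcl1 window held 1 GC box and the Bcl2 window 7, none overlapping another, whereas 35.7% of all 32851 RefSeq windows held at least 1. GC boxes were not particular to these members: windows of Bax, Bid, Bad, Bcl2l11 and Bmf held them too, and those of Bcl2l1 and Bak1 did not. GC content was 65.7% in the Mcl1 window and 76.0% in that of Bcl2, against a median of 52.7%. Searched on both strands, neither the Mcl1 nor the Bcl2 window held the letters TGANTCA of AP-1 (in 7.81% of all windows), TGACGTCA of the cyclic AMP response element (1.79%), the NF-kappaB letters GGGA, any 4 bases and CC (20.7%), CTTTGAT of TCF/LEF (3.73%), TTCNNNGAA of STAT factors (8.3%), CACGTG of the E-box (7.15%), CCAAT (37.4%) or TATAAA (13.6%). These are matches of letters, in 1 window each for Mcl1 and Bcl2, and say nothing of binding.

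Mcl1, a short-lived pro-survival protein that binds Bim, Noxa and Bak1, was the member with the smallest p. It measured 94.9, 134 and 129 CPM in the dKO-labelled libraries, against 78.6 and 63.2 CPM in WT. Every dKO-labelled library was above both WT libraries. The means were 119 ± 21.3 CPM (SD, n = 3) and 70.9 ± 10.9 CPM (SD, n = 2), a fitted 1.68-fold difference (95% interval 1.11 to 2.54; log2 fold change 0.75, SE 0.26, unadjusted p = 0.0198, adjusted p = 0.441 by edgeR). The unadjusted p was 0.121 without WT replicate 2 and 0.0524 without dKO-labelled replicate 3. By p it ranked 603 among the 13696 tested genes. In TPM, which is also scaled to transcript length, Mcl1 measured 51.9, 73.6 and 63.0 in the dKO-labelled libraries, against 39.1 and 27.0 in WT.

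Bcl2, the founding pro-survival member, stood at 2.87 to 13.8 TPM, well below Mcl1 and Bcl2l1 in every library, and the level of dKO-labelled replicate 2 stood apart. Its levels were 24.0, 56.5 and 20.3 CPM in the dKO-labelled libraries and 14.9 and 13.1 CPM in WT. The groups did not overlap, but dKO-labelled replicate 2 stood more than 2-fold above any other library. The dKO-labelled over WT difference was 1.26 on the log2 scale (SE 0.54, 95% interval 0.02 to 2.5, unadjusted p = 0.0476, adjusted p = 0.491 by edgeR). It was 0.67 without dKO-labelled replicate 2, where the unadjusted p was 0.144. Leaving out a WT library gave an unadjusted p of 0.129 for replicate 1 and 0.173 for replicate 2. Bcl2 overlaps the antisense gene D630008O14Rik over 6.09% of its exon bases, but that gene had at most 8 counts in any library. In TPM Bcl2 stood at 5.88, 13.8 and 4.73 in the dKO-labelled libraries, against 3.45 and 2.87 in WT.

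Bcl2l1 encodes Bcl-xL, known for keeping red cell precursors and platelets alive. It had 46.4, 28 and 45.5 CPM in the dKO-labelled libraries, and 41.7 and 31.8 CPM in WT. The groups overlapped, the lowest and the highest values both being dKO-labelled. The fitted difference was 0.12 on the log2 scale (adjusted p = 0.960 by edgeR), and the 95% interval runs from 0.613-fold to 1.93-fold. In TPM it stood at 36.7, 32.2 and 32.4 in the dKO-labelled libraries, against 31.9 and 20.9 in WT. The groups did not overlap on that scale, but only narrowly, at 32.2 in dKO-labelled replicate 2 against 31.9 in WT replicate 1. In dKO-labelled replicate 2, the lowest library by CPM, the TPM per unscaled CPM was 1.11, against 0.710 to 0.764 in the others.

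**Figure D1:**
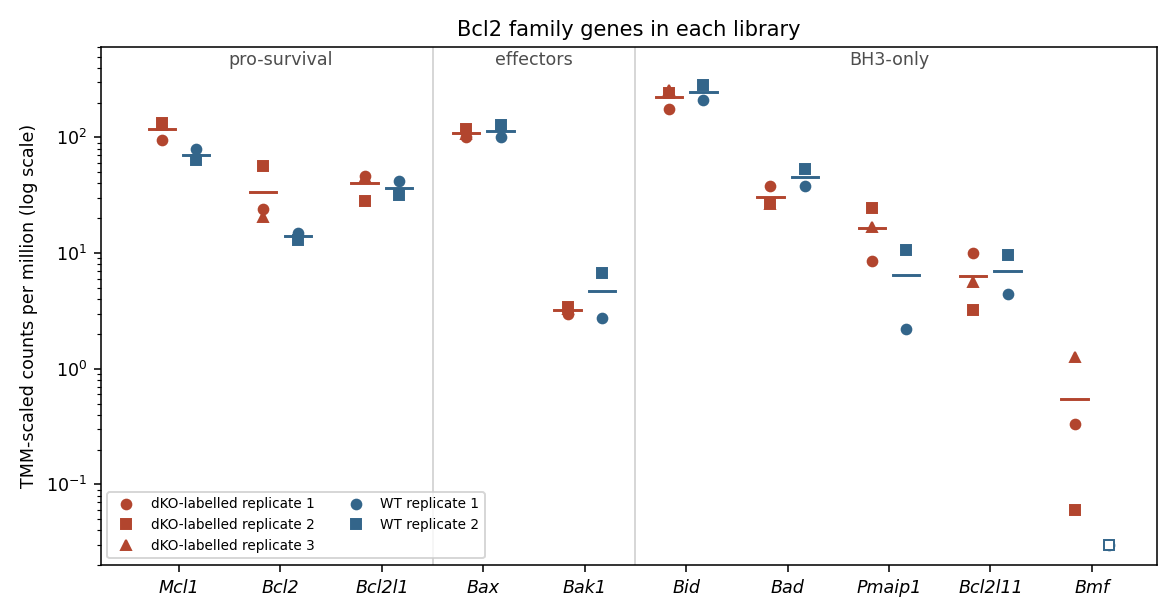
Level of each of the 10 members in each library, in TMM-scaled CPM on a log scale; points are libraries grouped by label, horizontal lines are group means, and the open symbol below the Bmf points stands for 0 counts in both WT libraries. Mcl1 and Bcl2 lie higher in all 3 dKO-labelled libraries than in WT, Bad lies lower, and the other tested members overlap.

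The pore-forming effectors were present at very unequal levels and did not separate the groups. Bax, a soluble effector that moves to mitochondria when activated and a known p53 target, measured 100, 118 and 108 CPM in the dKO-labelled libraries, against 101 and 128 CPM in WT. These ranges overlapped, and Bax also varied least among the members, with a biological coefficient of variation of 21.6%. The log2 fold change was -0.08 (adjusted p = 0.958 by edgeR), and its 95% interval runs from 0.665-fold to 1.35-fold. Bak1, the effector that resides in the outer membrane, measured 2.99, 3.44 and 3.26 CPM in the dKO-labelled libraries, against 2.74 and 6.69 CPM in WT. WT replicate 2 alone was high, and the interval of -2.86 to 1.78 around the log2 fold change of -0.54 was too wide to exclude large differences. Bak1 shares 18.2% of its exon bases on GRCm38 with Ggnbp1 on the opposite strand, which had 73, 36 and 18 counts in the dKO-labelled libraries and 105 and 126 in WT, so some of its reads could belong to that gene. In TPM the level of Bax exceeded that of Bak1 by 39.5-, 49.3- and 50.9-fold in the dKO-labelled libraries and by 58.9- and 30.4-fold in WT.

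Among the BH3-only genes, Pmaip1 had the largest fitted difference, and Bad was the tested gene whose groups did not overlap by CPM. Pmaip1 encodes Noxa, a p53-inducible protein that binds Mcl1 and hastens its breakdown. It measured 8.55, 24.3 and 16.9 CPM in the dKO-labelled libraries, against 2.20 CPM in WT replicate 1 and 10.7 CPM in WT replicate 2. The groups overlapped because WT replicate 2 lay above dKO-labelled replicate 1. The difference on the log2 scale was 1.36 (SE 0.82, adjusted p = 0.622 by edgeR; 95% interval -0.54 to 3.25). Omitting WT replicate 2 gave 2.91, omitting WT replicate 1 gave 0.62 and omitting dKO-labelled replicate 2 gave 0.97, so the size of this value rested on which WT library was kept. In TPM Pmaip1 stood at 6.44, 18.0 and 11.3 in the dKO-labelled libraries, against 1.61 and 6.15 in WT. The groups did not overlap on that scale, but only narrowly, at 6.44 in dKO-labelled replicate 1 against 6.15 in WT replicate 2. On log2(TPM + 1) the difference was 1.48 (unadjusted p = 0.0483, adjusted p = 0.542 by limma). How many of all genes separated in TPM was not counted. Set against its partner in TPM, Mcl1 exceeded Pmaip1 by 8.05-, 4.09- and 5.59-fold in the dKO-labelled libraries, against 24.3- and 4.39-fold in WT.

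Bad, whose protein is kept inactive by survival kinases and when freed binds Bcl2 and Bcl-xL, measured 37.7, 27.3 and 26.3 CPM in the dKO-labelled libraries, against 38.3 and 53.4 CPM in WT. All 3 dKO-labelled libraries were lower than WT, replicate 1 only slightly, at 37.7 CPM against 38.3 CPM in WT replicate 1. The difference on the log2 scale was -0.59 (adjusted p = 0.6 by edgeR; 95% interval -1.38 to 0.20), and -0.33 without WT replicate 2. Bad shares 20.5% of its exon bases with Gpr137 on the opposite strand, and Gpr137 had 206, 0 and 25 counts in the dKO-labelled libraries, against 250 and 189 in WT. The library method is not known to mark strand, and the part of that overlap in the lower counts of Bad was not tested. In TPM the groups overlapped, at 51.4, 45.6 and 36.4 in the dKO-labelled libraries against 47.2 and 74.9 in WT.

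Bid, which links death receptors to mitochondria once caspase 8 has cleaved it, did not separate the groups. It measured 176, 242 and 256 CPM in the dKO-labelled libraries, against 209 and 281 CPM in WT. These overlapped, and the difference on the log2 scale was -0.12 (adjusted p = 0.929 by edgeR; 95% interval -0.67 to 0.42). Of its exon bases 17.7% are shared with Bcl2l13 on the opposite strand, which had 843 to 1093 counts per library, against 3998 to 7006 for Bid. Bcl2l11, which encodes Bim and is induced when growth factors are withdrawn, measured 10, 3.20 and 5.67 CPM in the dKO-labelled libraries, against 4.45 and 9.61 CPM in WT. Its groups overlapped widely, and the 95% interval around the log2 fold change of -0.16 (adjusted p = 0.980 by edgeR) runs from 0.235-fold to 3.43-fold. Bmf, a BH3-only protein tied to the cytoskeleton, had 9, 1 and 34 counts in the dKO-labelled libraries and 0 in both WT libraries. Against a floor of 3 counts over the WT group its mean of 0.551 CPM was at least 9.41-fold higher, but replicate 3 alone held 34 of the 44 counts, and the floor covers counting error only.

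**Figure D2:**
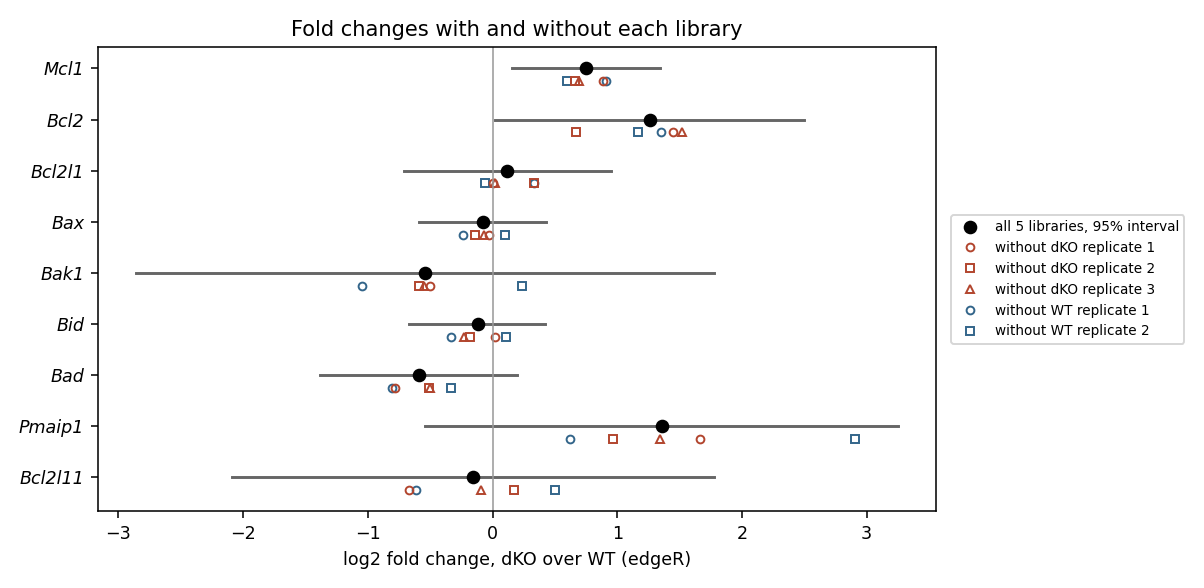
Log2 fold changes, dKO-labelled over WT, of the 9 tested members by edgeR; black points with lines are the fit on all 5 libraries with its 95% interval, open symbols the fit without the library named. The values of Mcl1, Bcl2 and Pmaip1 stay above 0 and those of Bad below 0 in all 5 such fits, while each of the other 5 members has symbols on both sides of 0.

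The order of the members by level was similar across libraries. By TPM, Bax came first and Bid second in every library, with 198, 231 and 200 TPM for Bax in the dKO-labelled libraries and 181 and 212 in WT. Bid had 156, 198 and 199 TPM in the dKO-labelled libraries and 164 and 178 in WT, so that these neighbours overlapped in range. Bax lay above at least 92.5% of the genes detected in any library. A middle tier held Mcl1, Bad and Bcl2l1, at 20.9 to 74.9 TPM. Within it Mcl1 stood above Bad in the 3 dKO-labelled libraries and Bad above Mcl1 in both WT libraries, although in dKO-labelled replicate 1 they stood at 51.9 and 51.4 TPM. A low tier held Pmaip1, Bcl2, Bak1 and Bcl2l11, at 1.35 to 18.0 TPM, and Bmf came last at 0 to 0.533 TPM. In this tier the 3 dKO-labelled libraries shared 1 order, with Pmaip1 highest, then Bcl2, Bak1 and Bcl2l11, whereas Bcl2 was highest in WT replicate 1 and lowest in WT replicate 2.

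Summed by role, the pro-survival transcripts were higher in the dKO-labelled libraries and the sums of the pro-death transcripts were not separated. Bcl2, Mcl1 and Bcl2l1 together made 94.5, 120 and 100 TPM in the dKO-labelled libraries, against 74.5 and 50.8 TPM in WT, and Mcl1 was the largest part in every library. Bax with Bak1 made 203, 235 and 204 TPM in the dKO-labelled libraries, against 184 and 219 TPM in WT. The BH3-only genes made 217, 263 and 249 TPM in the dKO-labelled libraries, against 215 and 263 TPM in WT. These BH3-only sums consisted mostly of Bid, a transcript whose protein acts after cleavage. Pro-survival transcripts took 18.4%, 19.4% and 18.1% of the members' TPM in the dKO-labelled libraries, against 15.7% and 9.54% in WT. The BH3-only share was lower in every dKO-labelled library, at 42.1%, 42.5% and 45.1% against 45.4% and 49.3% in WT, and the effector shares overlapped. The gap between 45.1% and 45.4% was narrow. The shares are parts of the same total, so the lower BH3-only share is not independent of the higher pro-survival share. No test was made of these sums or shares. With 3 and 2 libraries the smallest 2-sided p of an exact permutation test is 0.2. The higher sum moved with the stem cell markers given above, and was lowest in WT replicate 2, the library with the most granulocyte progenitor transcripts; their part in the result was not tested.

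**Figure D3:**
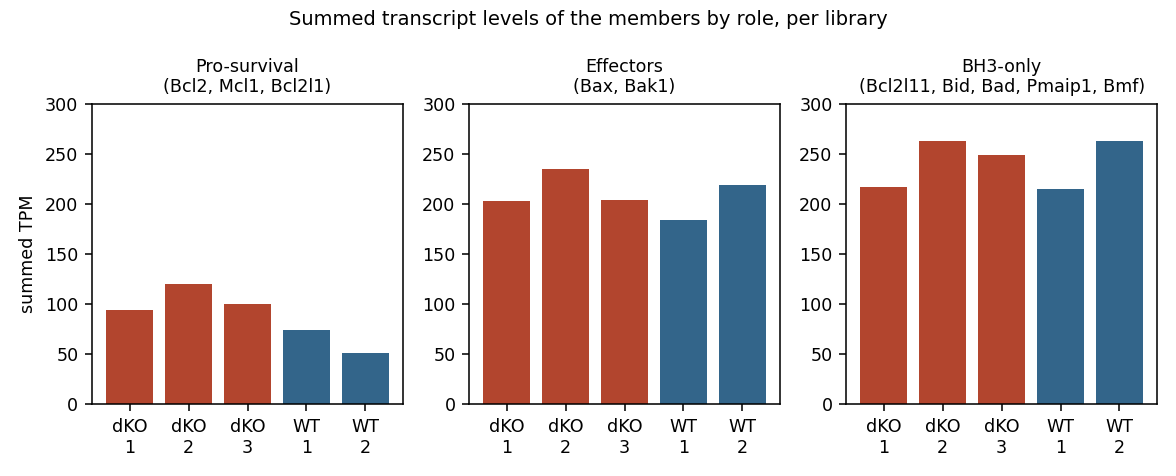
Summed TPM of the members by role in each library, with dKO-labelled libraries in red and WT libraries in blue. The pro-survival sum is 94.5 to 120 TPM in the dKO-labelled libraries and 50.8 to 74.5 TPM in WT, while the effector and BH3-only sums overlap between groups.

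The genes whose profile over the 5 libraries lay closest to that of Mcl1 were Nfix, Tial1 and H2-Q6. Likeness was measured as the root mean square distance of log2 CPM centred on each gene's mean, and these distances were 0.062, 0.064 and 0.067, against 0.414 for the size of Mcl1's own variation. Bcl2, for comparison, lay at 0.483 from Mcl1 and Pmaip1 at 0.969. The genes closest to Bad were Gyg, Tmem167 and Ppic, at 0.030, 0.053 and 0.063. No test was made of these distances.

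Other Bcl2 family genes were described from a list of 16, of which 10 were tested. Of these 3 had values above 0 and 7 below, 0 were called in either direction, and the median log2 fold change was -0.37 against 0.04 over all tested genes. Bcl2l12, a divergent relative, measured 10.8 ± 2.29 CPM in the dKO-labelled libraries and 16.4 ± 0.422 CPM in WT (SD, n = 3 and 2; log2 fold change -0.61, adjusted p = 0.753 by edgeR). Bbc3, the p53 target that encodes Puma, had 1.92, 4.23 and 9.0 CPM in the dKO-labelled libraries, against 3.34 and 1.08 CPM in WT, which overlap. Bcl2l13 and Bnip3l, mitophagy receptors at the outer membrane, had log2 fold changes of 0.30 and 0.20. Counts of the Bcl2a1 copies are uncertain because the genes are near-identical, and all were at 2.59 CPM or less. The BH3-only genes Bik and Hrk and the pro-survival relative Bcl2l10 had 0 counts in every library, apart from 1 count of Bik in WT replicate 1.

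Genes that act at the mitochondrion beside the Bcl2 family had mostly lower values by CPM in the dKO-labelled libraries. Of 12 tested mitochondrial partners 9 had values below 0, 8 had every dKO-labelled library below WT by CPM (15.6% of all genes did), and 0 were called. In TPM, Vdac2, Vdac3 and Slc25a5 still lay below WT in every dKO-labelled library, but Mtch2, Slc25a4, Dnm1l, Fis1 and Tspo overlapped. Tspo, for example, stood at 804, 997 and 852 TPM in the dKO-labelled libraries, against 966 and 1334 TPM in WT. Vdac2, the channel that holds Bak1 at the outer membrane, measured 205, 163 and 235 CPM in the dKO-labelled libraries, against 289 and 388 CPM in WT. The groups did not overlap, and the log2 fold change was -0.75 (unadjusted p = 0.0112, adjusted p = 0.436 by edgeR). The adenine nucleotide carrier Slc25a5, the channel Vdac3 and the cholesterol-binding protein Tspo had log2 fold changes of -0.73, -0.53 and -0.59, each with an unadjusted p under the threshold and an adjusted p of 0.436 to 0.469 by edgeR. Omitting WT replicate 2 gave -0.52 for Vdac2 and -0.21 for Tspo, with unadjusted p-values of 0.101 and 0.377. WT replicate 2, the library highest in Vdac2, Vdac3, Slc25a5 and Tspo, also held the most granulocyte progenitor transcripts (42271 CPM, against 6471 to 15761 CPM in the other 4), whose part in these values was not tested.

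Downstream, the list of the apoptosome and caspases had 4 of 12 tested genes above 0 and 8 below, with 0 called by edgeR. Cycs, cytochrome c, which also carries electrons in respiration, measured 304, 266 and 339 CPM in the dKO-labelled libraries, against 429 and 915 CPM in WT. All dKO-labelled libraries were lower, WT replicate 2 stood far above the rest, and the log2 fold change of -1.15 had an adjusted p of 0.430 by edgeR and of 0.0336 by DESeq2. By edgeR it was -0.50 without WT replicate 2 (unadjusted p = 0.0677, adjusted p = 1.0) and -1.6 without WT replicate 1. Aifm1, the flavoprotein released from mitochondria in death, had a log2 fold change of -0.88 (adjusted p = 0.436 by edgeR) without overlap, and -0.60 without WT replicate 2. Parp1, a caspase substrate, had -0.29.

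Inhibitors of apoptosis differed in direction among themselves. Of 11 tested genes 6 had values above 0 and 5 below, with 0 called and a median of 0.06. Birc2 and Birc3 encode cIAP1 and cIAP2, ubiquitin ligases of TNF receptor signalling. Birc2 measured 104, 97.9 and 88.8 CPM in the dKO-labelled libraries, against 62.4 and 49.5 CPM in WT, and Birc3 36.3, 65.3 and 29.7 CPM against 23.9 and 15.1 CPM. Neither overlapped (log2 fold changes 0.79 and 1.17, adjusted p = 0.436 and 0.468 by edgeR), where 13.7% of all tested genes had every dKO-labelled library above WT. Without WT replicate 2 the log2 fold changes were 0.64 for Birc2 and 0.87 for Birc3. Birc5, survivin, which acts mainly in mitosis, was lower in all 3 at 104, 119 and 160 CPM, against 163 and 266 CPM in WT (log2 fold change -0.75, adjusted p = 0.454 by edgeR). The gap between 160 and 163 CPM was narrow, 15.6% of all tested genes lay lower in this way, and Birc5 was at -0.36 without WT replicate 2. Xaf1, an antagonist of Xiap, overlapped between groups with a log2 fold change of -1.15, which was -0.18 when WT replicate 1 was omitted and -2.2 when dKO-labelled replicate 1 was.

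In the death receptor arm 6 of 15 tested genes had values above 0 and 9 below, with 0 called and a median of -0.16, which is the same with Tnfrsf25 at its bound. The necroptosis kinase Ripk3 measured 142 ± 6.07 CPM in the dKO-labelled libraries and 189 ± 8.08 CPM in WT (SD, n = 3 and 2; log2 fold change -0.41, adjusted p = 0.511 by edgeR). The adaptor Tradd had -0.40, and Cflar, which encodes the caspase 8 inhibitor FLIP, 0.39. Tnfrsf25, a receptor of T cells, had 1, 96 and 31 counts in the dKO-labelled libraries and 0 in both WT libraries, at least 39.8-fold higher against 3 counts over the WT group, with 96 of the 128 counts in replicate 2. Of the T cell genes, Cd3e had 0 counts in every library, Cd3d had 6, 0 and 1 in the dKO-labelled libraries and 25 and 0 in WT, and Cd3g had 0, 178 and 4 in the dKO-labelled libraries and 21 and 1 in WT. The 178 counts of Cd3g thus fell in the library with most Tnfrsf25 counts, and their part in that value was not tested.

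Regulators of the members had 12 of 17 tested genes above 0 and 5 below, with 0 called and a median of 0.19. Stat5a, a cytokine-activated factor known to induce Mcl1 and Bcl2l1, measured 122, 99.5 and 92.5 CPM in the dKO-labelled libraries, against 65.0 and 55.2 CPM in WT. The groups did not overlap (log2 fold change 0.80, adjusted p = 0.436 by edgeR). Ddit3, the stress factor CHOP, had 40.9 ± 2.56 CPM in the dKO-labelled libraries and 24.1 ± 0.0173 CPM in WT (SD, n = 3 and 2; log2 fold change 0.77, adjusted p = 0.486 by edgeR). Pim1, a survival kinase that phosphorylates Bad, had 69.9, 13.4 and 6.97 CPM in the dKO-labelled libraries, against 94.3 and 85.3 CPM in WT, lower in all 3 but with replicate 1 far above the others (log2 fold change -1.57, adjusted p = 0.567 by edgeR). Omitting dKO-labelled replicate 1 gave -3.14 (unadjusted p = 0.000373, adjusted p = 0.465 by edgeR). Trp53, which encodes p53, was lower in all 3 dKO-labelled libraries by CPM, where the fitted difference was -0.29 on the log2 scale (adjusted p = 0.657 by edgeR; 95% interval -0.73 to 0.14), but at 0.03 on log2 TPM.

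**Figure D4:**
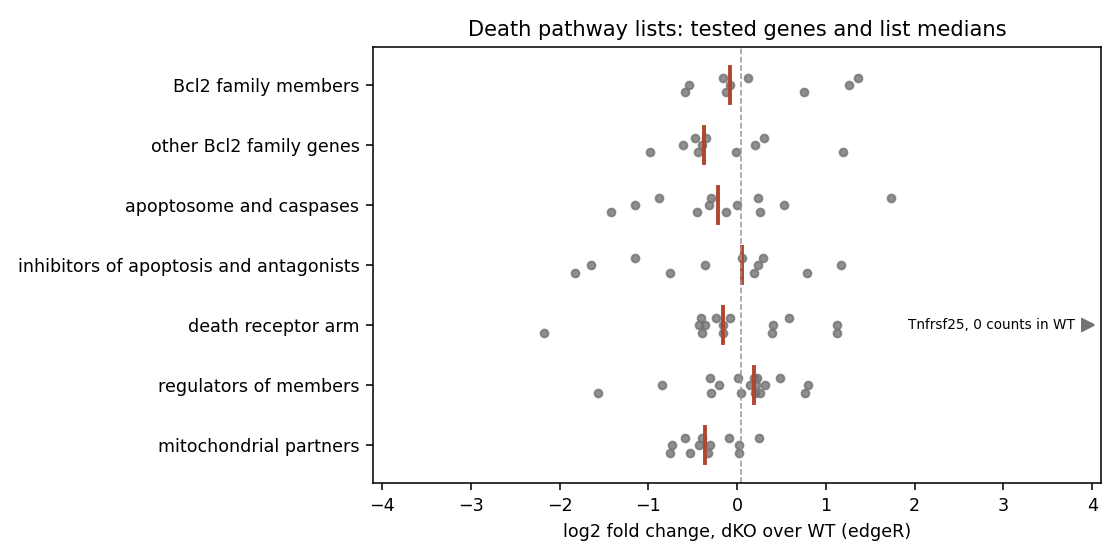
Log2 fold changes by edgeR, dKO-labelled over WT, of the tested genes of the members and of 6 lists of the death pathway; grey points are genes, red bars list medians, the dashed line the median of all tested genes at 0.04. The mitochondrial partners, with a median of -0.36, lie mostly below 0, and Tnfrsf25 is drawn at the edge because it had 0 counts in WT.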

How the data were processed

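RNA from 5 samples of sorted stem cells was made into Smart-seq2 libraries, per the labels' protocols. The authors deposited, for each sample, raw counts per gene and TPM values; per the submitters' processing notes the build was mm9 and the tools included TopHat2 2.1.1, HTSeq, RSEM 1.2.31, Trimmomatic, DESeq2 and FastQC 0.11.5. Which of them made which values is not stated. The 30 entries that name no gene, 0.216% to 0.269% of the counts, were left out. Counts were tested with edgeR 4.0.16 (TMM, filterByExpr, robust quasi-likelihood fits, all 5 libraries, no covariate); 95% intervals come from the test statistic. The common biological coefficient of variation was 67.9%. The test was checked on simulated counts. Alternatives used DESeq2 1.42.0 and limma 3.58.1, other scalings and filters, log2(TPM + 1) and log2(TPM + 0.1), a block for replicate number, and omission of each library in turn with the gene set kept. Libraries of a group differed far beyond sampling noise. Exon overlaps come from GENCODE M21 on GRCm38, another build than the files', so only promoter windows carry coordinates. RefSeq windows of the members were sought off chromosome 18 only, and matched 9 of the 10 members. Pmaip1 lies on chromosome 18, so it was left out by that choice. The percentages over all windows used every chromosome. blastn 2.17.0 found no other gene at 90% identity over 100 bases outside overlapping genes, except Gm20432 for Mcl1, at 91.8% over 245 bases. Named genes are the members, Lrp5, Lrp6, up to 4 per list with the smallest p and 3 most like Mcl1 and Bad by profile; genes beyond these were chosen after their values were seen. A gene that the rule names is not reported here. Members and lists were chosen with earlier results of these data known. Of the list entries, 1 had no match and 1 repeated another.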

Additional observations from a re-analysis of the deposited data

How the results depend on the processing

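Over 14 alternatives the log2 fold change of Mcl1 was 0.60 to 0.93, that of Bcl2 0.67 to 1.52, of Pmaip1 0.62 to 2.91 and of Bad -0.81 to -0.33; none of the 9 members was called under any of them. Without each library in turn the range was -0.06 to 0.33 for Bcl2l1, -0.67 to 0.50 for Bcl2l11, -0.24 to 0.10 for Bax, -1.05 to 0.24 for Bak1 and -0.33 to 0.11 for Bid. Bak1 was not tested at the filter of 5 CPM in 2 libraries. Bax and Bid were each at 0.10 on log2 TPM with either pseudocount, where the median of all genes was 0.14 against 0.04 for counts, so that relative to this median they were below 0 there too. Bcl2l11 was at 0.16 with limma-voom. Under the replicate block Bcl2l1 was at -0.01 and Lrp5 at -0.40; Lrp5 was -0.05 to 2.35 and Lrp6 -0.04 to 1.39 when a library was left out, and Bcl2l13 was -0.02 to 0.51. Trp53 was at 0.03 on log2 TPM. Cycs was called by DESeq2 (adjusted p = 0.0336). The number of genes called higher and lower was 154 and 91 by DESeq2, 5 and 3 with no filter, 3 and 2 on log2(TPM + 1), 2 and 0 on log2(TPM + 0.1), 1 and 0 under the block, and 0 to 2 in each direction when a library was left out; the causes were not tested. edgeR gave 677 genes higher and 711 lower at an unadjusted p of 0.05. Replicate numbers are shared by the groups in 2 cases; same-numbered libraries deviated together only weakly (correlations 0.0325 and 0.0458), so the numbers are not taken as pairs, and the block changed no call among the members (Mcl1 0.68, unadjusted p = 0.0632; Bcl2 1.40, unadjusted p = 0.0354, by edgeR). Where WT is left with 1 library, it is assumed to vary like the others. Low counts limit Bmf, Bak1 and Bcl2l11.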

Other observations

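Apaf1 and Bag1, picked after the values were seen, were far lower in dKO-labelled replicate 2 than in any other library. How many of all tested genes fell in this way was not counted, so the drop is not shown to be particular to the death pathway. Apaf1, the scaffold of the apoptosome, stood at 0.181 CPM there, against 28.2 and 18.9 CPM in the other dKO-labelled libraries and 20.9 and 22.2 CPM in WT. Bag1, a chaperone cofactor that binds Bcl2, stood at 2.05 CPM there, against 44.3 and 59.9 CPM in the other dKO-labelled libraries and 85.5 and 42.5 CPM in WT. That library had the fewest counts and 12894 detected genes, against 14750 to 16098 in the other 4; the part of this in the low values was not tested.

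The 2 deposited measures did not scale together equally for all members. The TPM given per unscaled CPM was nearly constant across libraries for Bax, at 1.78 to 1.89, and for Mcl1, at 0.479 to 0.531. For Bcl2l1 it was 1.11 in dKO-labelled replicate 2, against 0.735 and 0.710 in the other dKO-labelled libraries and 0.764 and 0.739 in WT. For Bcl2l11 it ran from 0.261 in dKO-labelled replicate 1 to 0.451 in WT replicate 2. Over 8439 genes with at least 5 CPM in every library, the highest library exceeded the lowest by a median factor of 1.16, and by 1.57 for Bcl2l1. The factor of 1.73 for Bcl2l11 belongs to a gene outside that set, since it had 3.20 CPM in dKO-labelled replicate 2 and 4.45 CPM in WT replicate 1, and its fewer counts give a less precise ratio.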
